A study of Arabidopsis thaliana with 48 samples.

Results

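The genes that make indole glucosinolates in Arabidopsis thaliana were followed through an infestation by spider mites. They were 10 loci chosen by name, 7 enzymes and 3 MYB factors, out of the 33211 features of the deposited count table. The enzymes were CYP79B2 (AT4G39950), CYP79B3 (AT2G22330), CYP83B1 (AT4G31500), GGP1 (AT4G30530), SUR1 (AT2G20610), UGT74B1 (AT1G24100) and SOT16 (AT1G74100). The MYB factors were MYB34 (AT5G60890), MYB51 (AT1G18570) and MYB122 (AT1G74080). All 10 were in the table, and 9 passed the filter on low counts that left 22252 genes for testing. MYB122 did not pass it and is described by its counts alone.

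The infested groups were Col-0 wild-type plants, 3 weeks old when 20 adult females of the spider mite Tetranychus urticae, which empties leaf cells, were put on each plant. The control groups were Col-0 plants of the same age without mites, and every plant of both kinds stood in a cylinder. Infested and control plants were harvested 30 min and 24 h after infestation and again on days 4, 7, 12 and 15, which gave 12 groups. Each library held the aerial parts of 4 pooled plants, and each group had 4 libraries, 48 in all.

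Glucosinolates are sulfur-rich thioglucosides of the cabbage family that release toxic products once myrosinases reach them in damaged tissue. The indole class starts from tryptophan: CYP79B2 and CYP79B3 turn it into an aldoxime, CYP83B1 activates the aldoxime for conjugation with glutathione, GGP1 trims the conjugate, and the C-S lyase SUR1 frees the thiohydroximate. UGT74B1 then adds glucose and the sulfotransferase SOT16 adds sulfate, while MYB34, MYB51 and MYB122 are transcription factors known to activate these genes. CYP79B2 and CYP79B3 act only in the tryptophan branch, whereas GGP1, SUR1 and UGT74B1 also serve glucosinolates made from other amino acids.

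The members lay on chromosomes 1, 2, 4 and 5, and no annotated gene of TAIR10.1 overlapped any of them. The 250 bases before each annotated start were read from RefSeq's TAIR10.1 and compared among the 10 members in all 45 pairs. The windows of CYP79B2 and CYP79B3, whose profiles across the 12 groups were the most alike of any 2 members, are shown because they held the longest identical run of all pairs. It was 22 bases long, began at -77 in CYP79B2 and at -151 in CYP79B3 relative to the start, and was in 2 of the 27443 promoter windows searched. The longest run of any other pair was a stretch of 14 T bases shared by GGP1 and SOT16, which was in 904 windows. In the 2 windows below (chr4:18524792-18525041, plus strand, and chr2:9488163-9488412, plus strand), the shared run is in capitals.
CYP79B2: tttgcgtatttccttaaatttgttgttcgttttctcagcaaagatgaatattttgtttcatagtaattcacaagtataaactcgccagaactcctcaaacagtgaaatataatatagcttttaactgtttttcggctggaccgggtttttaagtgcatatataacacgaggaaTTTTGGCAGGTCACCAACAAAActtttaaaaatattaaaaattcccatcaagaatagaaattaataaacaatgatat
CYP79B3: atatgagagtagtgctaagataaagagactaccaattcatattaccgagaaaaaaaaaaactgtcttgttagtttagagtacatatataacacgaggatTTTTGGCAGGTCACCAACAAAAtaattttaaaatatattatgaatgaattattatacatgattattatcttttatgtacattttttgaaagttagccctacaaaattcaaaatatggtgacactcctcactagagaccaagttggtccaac

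The same windows were searched on both strands for 8 short motifs, each given with the share of all promoter windows that held it. CACGTG (6.49%) and CACATG (11.1%) are cores bound by basic helix-loop-helix factors of the MYC type. TTGACC (12.18%) and TTGACT (19.1%) hold the core bound by WRKY factors. The MYB elements were ACCTAAC (2.46%), then ACCAAAC (8.29%), then ACCTACC (1.16%) and lastly ACCAACC (2.69%). The motifs TTGACC and TTGACT share all but their last letter, the 4 MYB elements differ from each other in 1 or 2 letters, and none of the 8 contains another. The window of SUR1 (chr2:8880441-8880690, minus strand) is shown because it alone held 4 of the 8, in capitals below, and SUR1 was the enzyme with the smallest response at 24 h.
SUR1: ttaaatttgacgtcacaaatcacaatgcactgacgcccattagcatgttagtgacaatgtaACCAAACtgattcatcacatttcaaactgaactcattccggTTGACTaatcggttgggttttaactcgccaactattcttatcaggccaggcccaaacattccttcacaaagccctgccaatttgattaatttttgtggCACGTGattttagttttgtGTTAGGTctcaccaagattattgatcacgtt
Relative to the start of SUR1, ACCAAAC began at -189, TTGACT at -148, CACGTG at -50 and the reverse complement of ACCTAAC at -31. Of the other members, UGT74B1 and SOT16 held ACCAACC, GGP1 held TTGACT and MYB51 held CACATG. The motifs TTGACC and ACCTACC were in no member window, and CYP79B2, CYP79B3, CYP83B1, MYB34 and MYB122 held none of the 8. A match is a run of letters in this window and does not show a bound site.

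The 48 libraries held between 12.5 and 23.4 M counts each (median 18.9 M). At 30 min the infested libraries held 12.5 to 14.6 M and the control libraries 17.6 to 21.4 M, and the ranges did not overlap. The summed level of 3 leaf markers was 13400 to 40700 counts per M (CPM) in the 48 libraries. That of 6 root markers was at most 4.92 CPM, with the root hair genes EXPA7, RSL4 and RHD6 at 0 throughout. Summed CPM of 7 floral organ markers was 3.9 to 8.4 at 30 min and 24 h and 150 to 204 at 15 d. Levels below are CPM after TMM scaling (a trimmed mean of log ratios), and a fold change is infested over control on the log2 scale with its standard error (SE). Adjusted p-values are from edgeR's quasi-likelihood test with Benjamini-Hochberg adjustment over the 22252 genes, and 0.05 was the threshold. In these bulk samples, fewer cells that express a gene and less of its RNA per cell cannot be told apart.

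All 7 enzyme genes were higher in infested plants at 24 h and at 4 d, 5 of them already at 30 min, and none passed at 12 d. Of the 9 tested members, 6 were higher and none lower at 30 min, against 13.3% of all genes higher and 9.71% lower. At 24 h 8 were higher and none lower, against 13% and 10.2% of all genes. At 4 d 8 were higher and 1 was lower, against 8.68% and 7.68%. At 7 d 2 were higher and 1 lower (6.16% and 7.59% of all genes), at 12 d none was higher and 1 lower (7.78% and 8.3%), and at 15 d 3 were higher and 1 lower (8.67% and 9.68%). The member lower at 4, 7, 12 and 15 d was MYB51 each time. DESeq2 gave the same 0 members lower at 30 min and 24 h and 0 higher at 12 d, and at an unadjusted p under 0.05 edgeR gave 0, 0 and 1. The median log2 fold change of the 9 members was 0.74, 1.61, 1.15, 0.43, 0.05 and 0.42 at the 6 times in order, and that of all genes lay between -0.02 and 0.01.

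**Figure D1:**
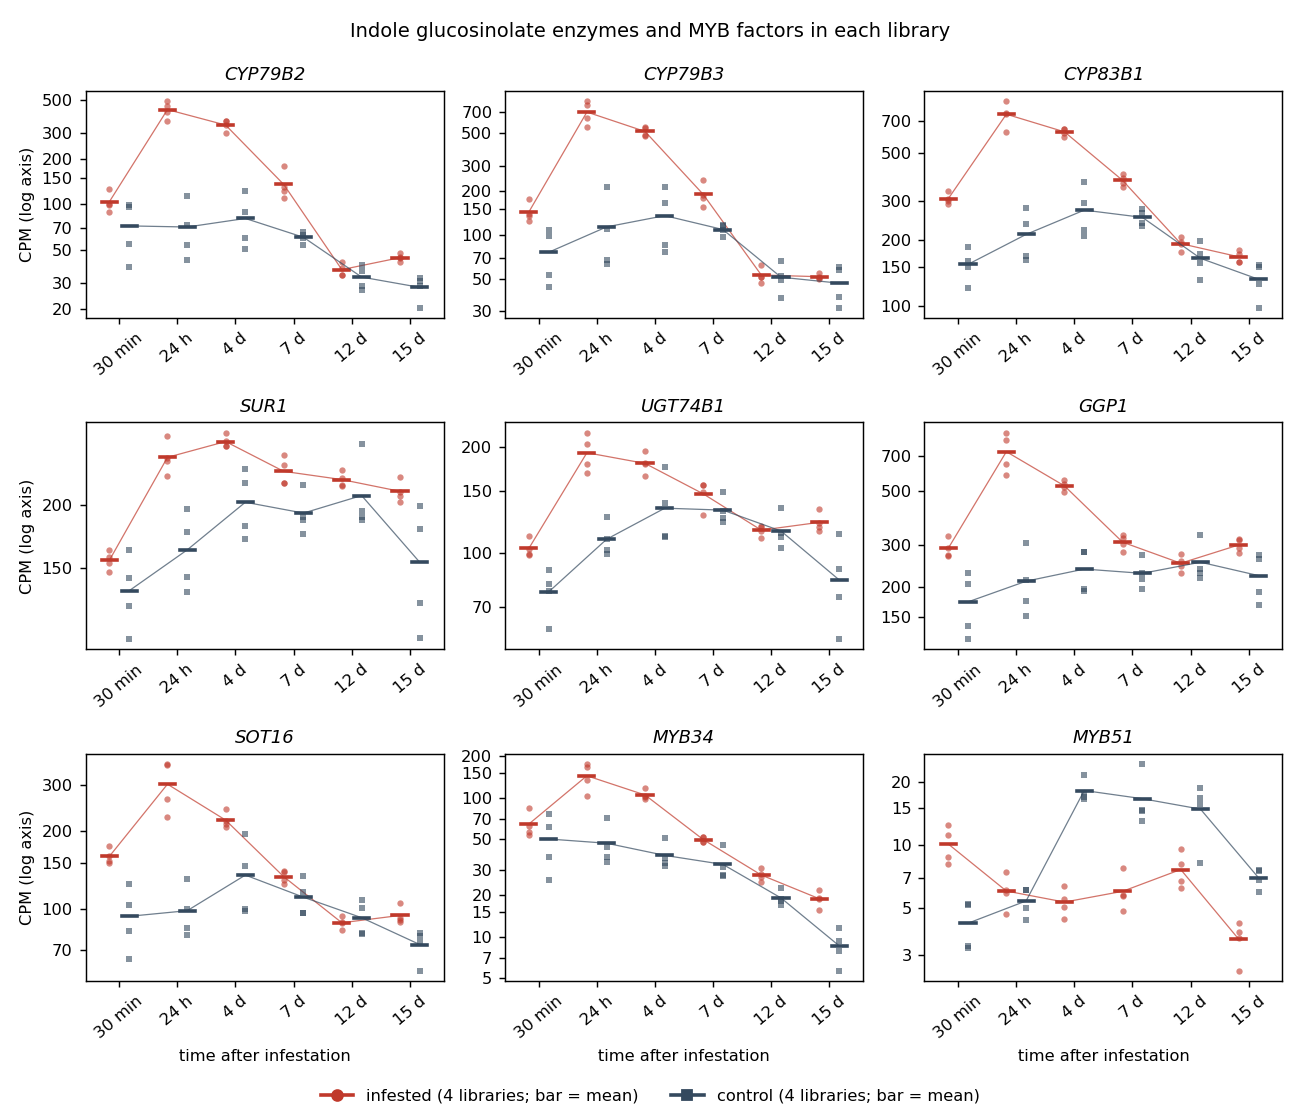
Scaled CPM (log axis) of the 9 tested members in each of the 48 libraries at the 6 times; circles are infested and squares control libraries, bars are means of 4 libraries, and thin lines join the means. At 24 h every infested library lay above every control library for all 7 enzymes and MYB34. At 4 d every infested library lay below every control library for MYB51. How many of all genes had groups apart in this way was not counted.

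CYP79B2 and CYP79B3, the pair that commits tryptophan to the pathway, had the largest rises of the members. CYP79B2 at 24 h had 487, 455, 358 and 414 CPM in infested plants, against 42.7, 114, 72.6 and 53.5 CPM in control plants. CYP79B3 had 832, 636, 557 and 781 CPM in infested plants, against 63.1, 214, 111 and 67 CPM in control plants. The groups were far apart for both genes, and control replicate 2 was the highest control library of each. The log2 fold change was 2.60 ± 0.26 for CYP79B2 (SE, adjusted p 7.5e-10) and 2.62 ± 0.32 for CYP79B3 (SE, adjusted p 3.9e-08). These were rises of 6.06-fold and 6.16-fold.

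At 4 d CYP79B2 averaged 338 ± 29.2 CPM in infested and 80.6 ± 32.9 CPM in control plants (SD, n = 4 each), a log2 fold change of 2.07 ± 0.25 (SE, adjusted p 1e-07). CYP79B3 averaged 516 ± 36.5 CPM in infested and 136 ± 66.4 CPM in control plants, a log2 fold change of 1.92 ± 0.31 (SE, adjusted p 1.2e-05). Infested libraries stayed above all control libraries for both genes. At 7 d they did so again, but the rise passed the threshold only for CYP79B2 (136 ± 31.3 CPM in infested and 60.3 ± 5.2 CPM in control plants, log2 fold change 1.17, adjusted p 0.00099) and not for CYP79B3 (191 ± 34.5 CPM in infested and 109 ± 9.27 CPM in control plants, log2 fold change 0.81, adjusted p 0.07). The responses of the 2 genes at 7 d did not differ past the threshold (difference 0.36 on the log2 scale, exact permutation p 0.057, adjusted 0.084), and with the 8 libraries of 7 d fitted alone CYP79B3 passed too (adjusted p 0.0015, range over 16 settings 0.0015 to 0.19).

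The pair were less clear at 30 min and near control late. At 30 min CYP79B2 averaged 104 ± 15.8 CPM in infested and 71.9 CPM in control plants, with control libraries from 38.5 to 98.9 CPM that overlapped the infested ones (log2 fold change 0.53, adjusted p 0.13). CYP79B3 averaged 144 ± 22.3 CPM in infested and 76.1 ± 32.5 CPM in control plants, with infested libraries from 125 to 176 and control libraries from 43.8 to 109 CPM. Its log2 fold change of 0.92 ± 0.30 passed (SE, adjusted p 0.024), but not with the 30 min libraries fitted alone (0.093), nor without infested replicate 1 (0.08), control replicate 3 (0.095) or control replicate 4 (0.11), where the range over 16 settings was 0.0095 to 0.11. Without control replicate 2, CYP79B2 passed at 30 min (log2 fold change 0.73, adjusted p 0.045, range 0.045 to 0.43). The control libraries of 30 min were the deeper ones, and the part of depth in these results was not tested. At 12 d CYP79B2 had 36.7 ± 3.57 CPM in infested and 32.8 ± 6.09 CPM in control plants, and CYP79B3 had 46.6 to 62.5 CPM in infested and 36.8 to 66.7 CPM in control plants. At 15 d the infested libraries of CYP79B2, from 41.4 to 47.1 CPM, lay above the control libraries, from 20.5 to 32.3 CPM, with a log2 fold change of 0.66 that missed the threshold (adjusted p 0.066). DESeq2 (0.044) and the fit of 15 d alone (0.014) put it past the threshold (range over 16 settings 0.014 to 0.22). CYP79B3 at 15 d had a log2 fold change of 0.15 (adjusted p 0.78), with overlapping libraries.

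CYP83B1, the next enzyme, rose already at 30 min. Infested plants had 335, 291, 307 and 300.0 CPM at 30 min, against 161, 186, 151 and 120 CPM in control plants. No library overlapped, and the log2 fold change was 1.00 ± 0.15 (SE, adjusted p 2.1e-06). At 24 h infested libraries ranged from 622 to 861 CPM and control libraries from 162 to 280 CPM, a log2 fold change of 1.83 ± 0.16 (SE, adjusted p 8.2e-12). The rise was 1.19 at 4 d (adjusted p 1.4e-07) and 0.56 at 7 d (adjusted p 0.0087), where means were 374 ± 23.1 CPM in infested and 253 ± 21.5 CPM in control plants. At 12 d it was 0.22 (adjusted p 0.35). At 15 d the infested libraries again lay above the control libraries, yet the log2 fold change of 0.34 missed the threshold (adjusted p 0.11).

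GGP1, which removes glutamate from the glutathione conjugate, followed the same course at a high level. At 24 h infested plants had 875, 651, 582 and 814 CPM, against 152, 306, 215 and 176 CPM in control plants. The lowest infested library was well above the highest control library, and the log2 fold change was 1.78 ± 0.19 (SE, adjusted p 1.3e-09). GGP1 was also higher at 30 min (290.0 ± 26.6 CPM in infested and 174 ± 52.1 CPM in control plants, log2 fold change 0.74, adjusted p 0.002) and at 4 d (527 ± 25.9 CPM in infested and 238 ± 49.4 CPM in control plants, log2 fold change 1.15, adjusted p 9.1e-06). At 7 d and 15 d its groups did not overlap, but its log2 fold changes of 0.43 and 0.42 missed the threshold (adjusted p 0.12 and 0.098). The fit of 7 d alone put the rise of 7 d past it (0.027, range over 16 settings 0.027 to 0.3). At 12 d its means were 252 ± 19.6 CPM in infested and 254 ± 51.7 CPM in control plants.

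SUR1 and UGT74B1, the later shared steps, rose less. SUR1 at 24 h had 274, 248, 228 and 244 CPM in infested plants, against 134, 177, 196 and 144 CPM in control plants. The groups did not overlap, and the log2 fold change was 0.61 ± 0.13 (SE, adjusted p 0.00041). At 30 min it was 0.20 (adjusted p 0.32). The SUR1 rise at 4 d was 0.40 ± 0.13 (SE, adjusted p 0.028) and was lost without infested replicate 3 (0.067) or 4 (0.054) or control replicate 2 (0.1) or 3 (0.13), a range over 16 settings of 0.014 to 0.13. At 15 d SUR1 was higher again, with 203 to 227 CPM in infested and 109 to 199 CPM in control plants. That log2 fold change of 0.47 ± 0.13 (SE, adjusted p 0.01) was lost in the fit of 15 d alone (0.12) and without control replicate 2 (0.087) or 4 (0.064), a range of 0.00069 to 0.12.

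UGT74B1 at 24 h had 219, 178, 168 and 204 CPM in infested plants, against 99.2, 127, 110.0 and 102 CPM in control plants. All infested libraries lay above the control libraries, and the log2 fold change was 0.82 ± 0.13 (SE, adjusted p 7.6e-06). At 30 min UGT74B1 rose by 0.41 (adjusted p 0.022), a call lost without infested replicate 1 (0.07) or control replicate 4 (0.12), a range of 0.012 to 0.12. At 4 d it rose by 0.42 (adjusted p 0.023), with 1 control library at 175 CPM inside the infested range of 165 to 194 CPM. That call was lost in the fit of 4 d alone (0.11) and without infested replicate 4 (0.073) or control replicate 2 (0.11) or 3 (0.11), a range of 0.0017 to 0.11. At 15 d UGT74B1 was 122 ± 7.91 CPM in infested and 83.8 ± 23.8 CPM in control plants, a log2 fold change of 0.54 (adjusted p 0.0037) that the fit of 15 d alone lost (0.095, range 9.3e-05 to 0.095).

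SOT16, the sulfotransferase that prefers the indole substrate, was between these. At 24 h it had 360.0, 265, 226 and 356 CPM in infested plants, against 80.1, 130.2, 99.99 and 85.2 CPM in control plants. The groups did not overlap, and the log2 fold change was 1.61 ± 0.18 (SE, adjusted p 4.9e-09). SOT16 was higher at 30 min too (160.0 ± 10.4 CPM in infested and 94.1 ± 26.1 CPM in control plants, log2 fold change 0.76, adjusted p 0.001). At 4 d it rose by 0.70 (adjusted p 0.0035), which the fit of 4 d alone did not keep (0.085, range over 16 settings 0.00011 to 0.085). At 7, 12 and 15 d the log2 fold changes were 0.26, -0.06 and 0.37, none past the threshold (adjusted p 0.38, 0.86 and 0.14).

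Other measures moved with infestation at 24 h and at some later times. At 24 h the leaf marker sum was 25300 to 26600 CPM in infested and 32100 to 36300 CPM in control libraries, and at 4 d it was 30400 to 32300 CPM in infested and 35500 to 38500 CPM in control libraries. At 7 d the leaf marker sum overlapped, with 33100 to 38900 CPM in infested and 28800 to 40700 CPM in control libraries. At 12 d it was higher in infested libraries, with 25400 to 29500 CPM against 20100 to 23400 CPM in control libraries. At 15 d it was 17900 to 23600 CPM in infested and 13400 to 17400 CPM in control libraries. The clock genes CCA1 and LHY were lower in infested plants at 24 h (log2 fold changes -0.82 and -0.66, adjusted p 3e-10 and 6.3e-09), and PRR5 was higher (1.24, adjusted p 0.014). TOC1 and GI did not pass at 24 h (0.15 and 0.28). The part of leaf content and clock phase in the member results was not tested.

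**Figure D2:**
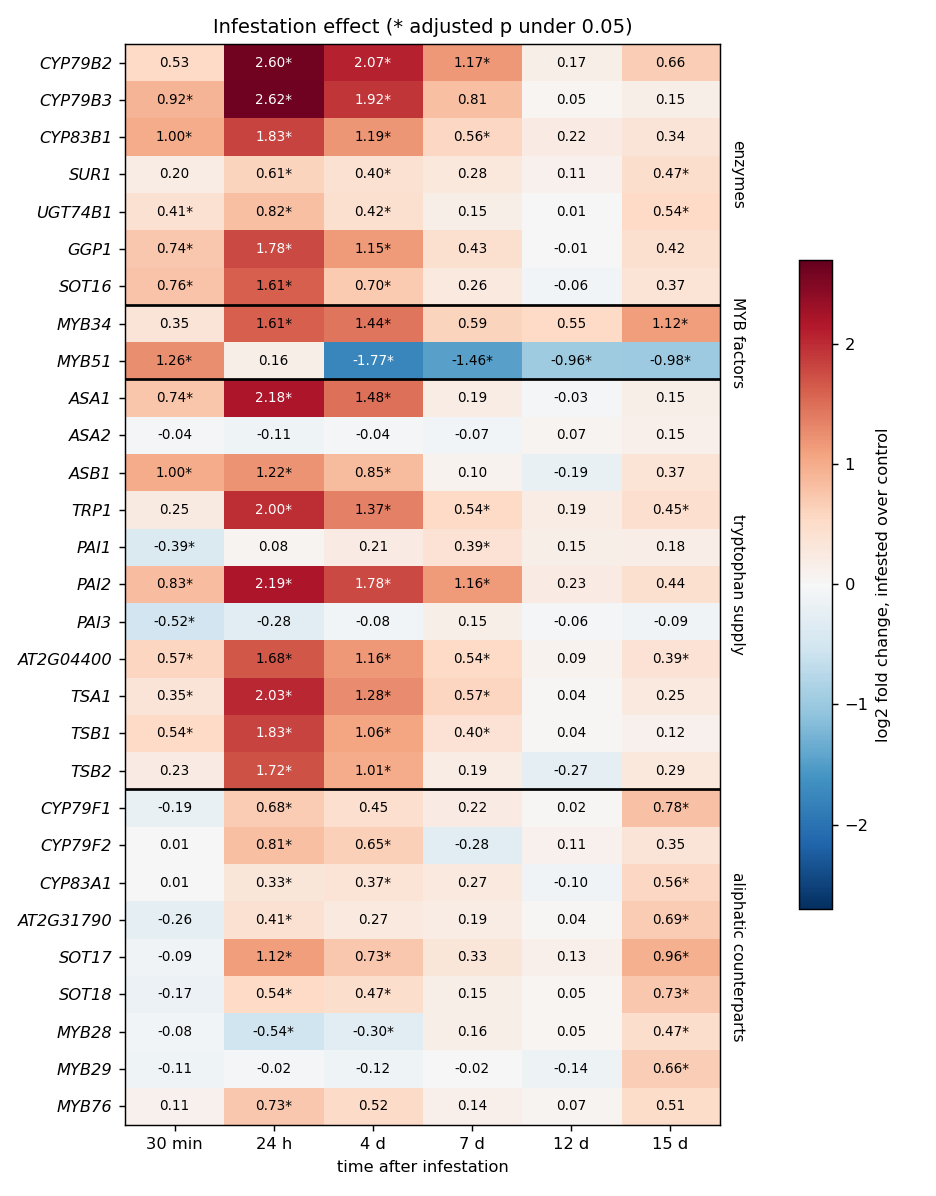
Log2 fold changes, infested over control, at the 6 times for the 7 enzymes, the 2 tested MYB factors, 11 genes of tryptophan supply and 9 aliphatic counterparts; red is higher and blue lower in infested plants, and a star marks an adjusted p under 0.05. The enzyme rows were highest at 24 h, from 0.61 for SUR1 to 2.62 for CYP79B3, and the MYB51 row was positive at 30 min and negative from 4 d on.

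MYB34 was higher in infested plants at 24 h, 4 d and 15 d. At 24 h it had 165, 133, 102 and 173 CPM in infested plants, against 34.6, 71.5, 44.2 and 37.5 CPM in control plants. All infested libraries lay above all control libraries, as they did at each later time. The log2 fold change was 1.61 ± 0.24 at 24 h (SE, adjusted p 1.7e-06) and 1.44 ± 0.24 at 4 d (SE, adjusted p 1.9e-05). At 7 d and 12 d it was 0.59 and 0.55 and missed the threshold (adjusted p 0.095 and 0.13). MYB34 passed in the fits of 7 d alone (0.03) and 12 d alone (0.0093), and at 7 d also without control replicate 1 (log2 fold change 0.79, adjusted p 0.027). Over 16 settings its adjusted p ranged from 0.027 to 0.25 at 7 d and from 0.0093 to 0.25 at 12 d. At 15 d MYB34 was higher, with 15.5, 18.6, 19.1 and 21.7 CPM in infested plants, against 9.24, 5.7, 11.5 and 7.89 CPM in control plants (log2 fold change 1.12 ± 0.26, SE, adjusted p 0.0024). At 30 min its libraries overlapped, and the log2 fold change of 0.35 did not pass (adjusted p 0.33).

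MYB51 went the other way after the first day. At 30 min it had 8.15, 8.77, 12.5 and 11.2 CPM in infested plants, against 3.31, 3.23, 5.26 and 5.18 CPM in control plants, a rise of 1.26 ± 0.22 on the log2 scale (SE, adjusted p 1.8e-05). At 24 h the groups overlapped, with 6.05 ± 1.12 CPM in infested and 5.43 ± 0.86 CPM in control plants (log2 fold change 0.16, adjusted p 0.69). At 4 d it had 6.39, 4.44, 5.51 and 5.08 CPM in infested plants, against 21.7, 17.8, 16.6 and 17.0 CPM in control plants. Every infested library was below every control library, and the log2 fold change was -1.77 ± 0.21 (SE, adjusted p 2.2e-08).

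MYB51 stayed lower in infested plants to the end of the series. At 7 d its means were 6.03 ± 1.24 CPM in infested and 16.7 ± 5.18 CPM in control plants (log2 fold change -1.46, adjusted p 1.7e-06). Control replicate 4 stood apart there at 24.39 CPM, and over 16 settings, among them the fit without it, the log2 fold change was between -1.61 and -1.23. At 12 d the means were 7.67 ± 1.5 CPM in infested and 14.9 ± 4.61 CPM in control plants, with overlapping libraries because control replicate 4 had 8.25 CPM (log2 fold change -0.96, adjusted p 0.00074). At 15 d infested libraries had 2.52 to 4.25 CPM and control libraries 6.0 to 7.62 CPM (log2 fold change -0.98, adjusted p 0.0016).

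MYB122 was at the edge of detection. It had 33 counts in all 48 libraries, was at 0 in 35 of them, and its highest count in any library was 8, in a control library at 30 min. The 24 infested libraries held 8 of the counts and the 24 control libraries 25. All infested libraries of 7, 12 and 15 d and all control libraries of 4 and 7 d were at 0, and a count of 0 allows up to 3 counts in a library, or 0.125 to 0.25 CPM by depth (counting error only). edgeR did not test it, and no fold change is given.

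The effect of infestation itself changed between 30 min and 24 h. The change was tested as the effect at 24 h minus the effect at 30 min, which was past the threshold in the positive direction for 6 of the 9 members and in the negative direction for 1, against 5.36% and 5.64% of all genes. CYP79B2 gained 2.07 on the log2 scale (adjusted p 7.7e-05), CYP79B3 1.71 (0.0061), MYB34 1.26 (0.0096), GGP1 1.05 (0.0049), SOT16 0.85 (0.02) and CYP83B1 0.83 (0.0073). For MYB51 the change was -1.11 (0.015). SUR1 and UGT74B1 gained 0.41 each, with SE of 0.19, and did not pass (adjusted p 0.17 and 0.19). Between 24 h and 4 d, the change was negative for 2 members and positive for none (0 also at an unadjusted p under 0.05), against 2.77% and 0.589% of all genes. It was -1.93 for MYB51 (adjusted p 2.1e-05) and -0.91 for SOT16 (adjusted p 0.026). No later step passed for any of the 9 members, where 3.57%, 2% and 0.706% of all genes passed in either direction from 4 d on (at an unadjusted p under 0.05, edgeR gave 5, 1 and 1 members), and DESeq2 gave 0 at each. Over all 6 times the effect differed for 8 of the 9 and for 41.1% of all genes, the exception being SUR1 (adjusted p 0.18).

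The levels also differed between harvests in plants without mites. Plant age and other differences between harvests cannot be told apart here. At 24 h against 30 min, UGT74B1 rose in control plants by 0.498 and CYP83B1 by 0.455 on the log2 scale (adjusted p 0.0022 and 0.013). These were 2 of the 9 members. The share of all genes is not given for this step in control plants, so the count is not read as a result about the members. In infested plants the same step was 0.903 for UGT74B1 and 1.285 for CYP83B1 (adjusted p 2.8e-07 and 2.2e-09). CYP79B2, CYP79B3, CYP83B1 and MYB34 fell in control plants at 12 d against 7 d, by 0.88, 1.09, 0.62 and 0.80 on the log2 scale (adjusted p 0.0052, 0.0042, 0.001 and 0.0081). Across that step 17.8% of all genes fell in control plants. MYB34 fell by a further 1.14 at 15 d against 12 d (adjusted p 0.00076), and MYB51, SUR1 and UGT74B1 fell there by 1.09, 0.44 and 0.46 (adjusted p 5.4e-05, 0.0078 and 0.0064), where 16% of all genes fell. MYB51 in control plants rose by 1.75 ± 0.21 at 4 d against 24 h (SE, adjusted p 4.8e-08), when 5.87% of all genes rose. In infested plants the same step of MYB51 was -0.18 (adjusted p 0.72), and the change of effect given above is the difference of these 2 steps. Variation over the 6 times in control plants passed for 8 of the 9 members and 85.3% of all genes, the exception being GGP1 (adjusted p 0.1).

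In infested plants all 9 members changed at 24 h against 30 min, 8 upward and MYB51 downward by 0.75 (adjusted p 0.0035), where 25.8% of all genes changed upward and 25.3% downward. The largest rise was that of CYP79B3, 2.29 ± 0.31 (SE, adjusted p 8.3e-08), and the smallest was that of SUR1, 0.68 ± 0.13 (SE, adjusted p 2.8e-05). By edgeR none passed at 4 d against 24 h, where 5.6% of all genes did, and 2 members fell at an unadjusted p under 0.05. At 7 d against 4 d, 6 fell, against 2.59% of all genes: CYP79B3 by 1.44 (adjusted p 0.0023), CYP79B2 by 1.32 (0.00067), MYB34 by 1.06 (0.0037), GGP1 by 0.78 (0.006), CYP83B1 by 0.74 (0.0015) and SOT16 by 0.72 (0.0083). At 12 d against 7 d, 5 fell, against 10.7% of all genes, among which CYP79B2 fell by 1.89 (adjusted p 4.5e-07) and CYP79B3 fell by 1.84 (1.8e-05). Of the 9 members, 1 fell at 15 d against 12 d in infested plants, against 14.6% of all genes: MYB51 fell by 1.11 (adjusted p 0.00014). The floral marker sum rose over the same harvests, and at 12 d it was 90.4 to 122 CPM in infested and 131 to 147 CPM in control libraries. Its part in these changes was not tested.

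Per length of exon, the order of the enzymes at 24 h differed between infested and control plants. At 24 h in infested plants GGP1 was highest at 601 ± 113 CPM per kb, then CYP83B1 at 395 ± 51.7, CYP79B3 at 313 ± 56.8, SOT16 at 223 ± 49.5, CYP79B2 at 201 ± 26.1, SUR1 at 133 ± 10.11 and UGT74B1 at 115 ± 14.0 (SD, n = 4). The ranges of mean ± SD overlapped between CYP83B1 and CYP79B3, CYP79B3 and SOT16, SOT16 and CYP79B2, and SUR1 and UGT74B1. In control plants at 24 h GGP1 was again highest at 175 ± 55.7 CPM per kb, then CYP83B1 at 111 ± 29.5, SUR1 at 86.9 ± 15.34, SOT16 at 73.2 ± 16.7, UGT74B1 at 65.3 ± 7.43, CYP79B3 at 50.8 ± 31.4 and CYP79B2 at 33.1 ± 14.6. The entry enzymes CYP79B2 and CYP79B3 were thus the lowest of the 7 on this scale in control plants at 24 h and not in infested plants, although the ranges of mean ± SD of all neighbours in the control order overlapped. At 15 d the order in infested plants ran GGP1 247 ± 15.6, SUR1 114 ± 5.63, CYP83B1 88.0 ± 5.56, UGT74B1 73.0 ± 4.73, SOT16 70.2 ± 5.54, CYP79B3 23.1 ± 1.01 and CYP79B2 20.7 ± 1.11 CPM per kb. In control plants at 15 d it ran GGP1 184 ± 42.4, SUR1 82.1 ± 22.7, CYP83B1 69.4 ± 13.7, SOT16 54.4 ± 7.66, UGT74B1 50.1 ± 14.2, CYP79B3 20.8 ± 6.3 and CYP79B2 13.1 ± 2.44 CPM per kb, so the orders differed only in SOT16 and UGT74B1, whose ranges of mean ± SD overlapped.

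Of the MYB factors, MYB34 was above MYB51 per length of exon by group mean at every time, in infested and in control plants. In single control libraries the ratio of MYB34 to MYB51 went down to 0.991 at 12 d and 0.954 at 15 d. At 24 h MYB34 had 80.7 ± 18.4 CPM per kb in infested and 26.4 ± 9.48 in control plants, and MYB51 had 3.39 ± 0.63 in infested and 3.04 ± 0.48 in control plants. The ratio of MYB34 to MYB51 within a library at 4 d was 15.8 to 22.0 in infested plants, with a median of 20.8, and 1.56 to 3.01 in control plants, with a median of 2.02. The 2 ranges were far apart. At 30 min the ratio was 4.56 to 10.4 in infested and 4.97 to 23.7 in control plants, and these ranges overlapped. At 15 d it was 4.33 to 8.64 in infested and 0.954 to 1.54 in control plants, so control plants then held about equal levels of the 2 factors. The response of MYB51 minus that of MYB34 was -3.21 on the log2 scale at 4 d, and the groups did not overlap at 5 of the 6 times, from 24 h to 15 d. That difference had the smallest p that 4 against 4 libraries allow at each of these times (exact permutation p 0.029, two-sided, adjusted 0.051), which misses the threshold. With the tests of MYB122 left out of the adjustment, it was 0.0498 (exact permutation).

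**Figure D3:**
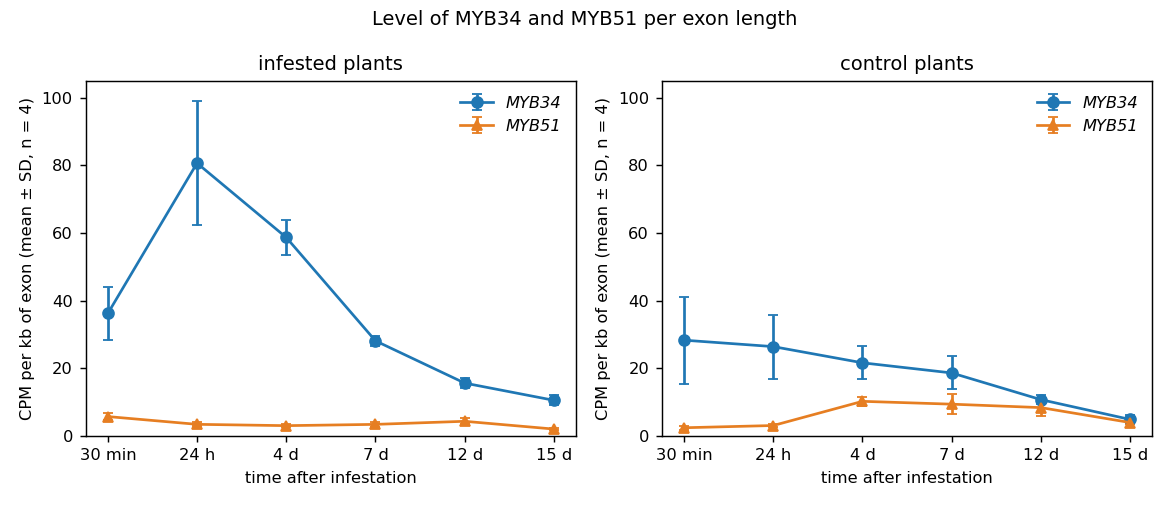
Level of MYB34 (circles) and MYB51 (triangles) in CPM per kb of exon, mean ± SD of 4 libraries, at the 6 times in infested plants (left) and control plants (right). MYB34 peaks at 80.7 in infested plants at 24 h, while MYB51 in control plants goes up to 10.2 at 4 d and stays at 3.0 in infested plants.

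The responses of indole genes were set against those of genes that do the same step for methionine-derived, aliphatic glucosinolates. For each of 11 pairs of genes, aliphatic and same-family pairs together, the difference in log2 CPM (prior count 2) within a library was compared between infested and control plants at 6 times. Of the 66 tests, 37 had groups that did not overlap and the smallest p the design allows (exact permutation p 0.029), but after Benjamini-Hochberg adjustment these stood at 0.051 and none passed. Of the tests, 12 involved MYB122, whose counts at or near 0 leave its pairs to show mainly the partner gene. Without them, an alternative chosen after seeing the data, 31 of 54 tests had the smallest p and passed at an adjusted exact permutation p of 0.0498. The differences that follow are between responses on the log2 scale, not between levels. The response of CYP79B2 exceeded that of CYP79F1, the enzyme that takes chain-elongated methionine, by 1.99 at 24 h and 1.68 at 4 d. The response of CYP83B1 exceeded that of CYP83A1, which accepts aliphatic aldoximes, by 1.52 at 24 h and 0.85 at 4 d. In these 4 comparisons the groups did not overlap. The response of UGT74B1 exceeded that of AT2G31790, an aliphatic-branch glucosyltransferase, by 0.67 at 30 min and 0.40 at 24 h without overlap. At 4 d the difference was 0.17 with overlap. The response of SOT16 exceeded that of SOT18 by 1.06 and that of SOT17 by 0.47 at 24 h, again without overlap. At 15 d the response of SOT16 minus that of SOT17 was -0.63 without overlap, and minus that of SOT18 it was -0.36 with overlap.

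**Figure D4:**
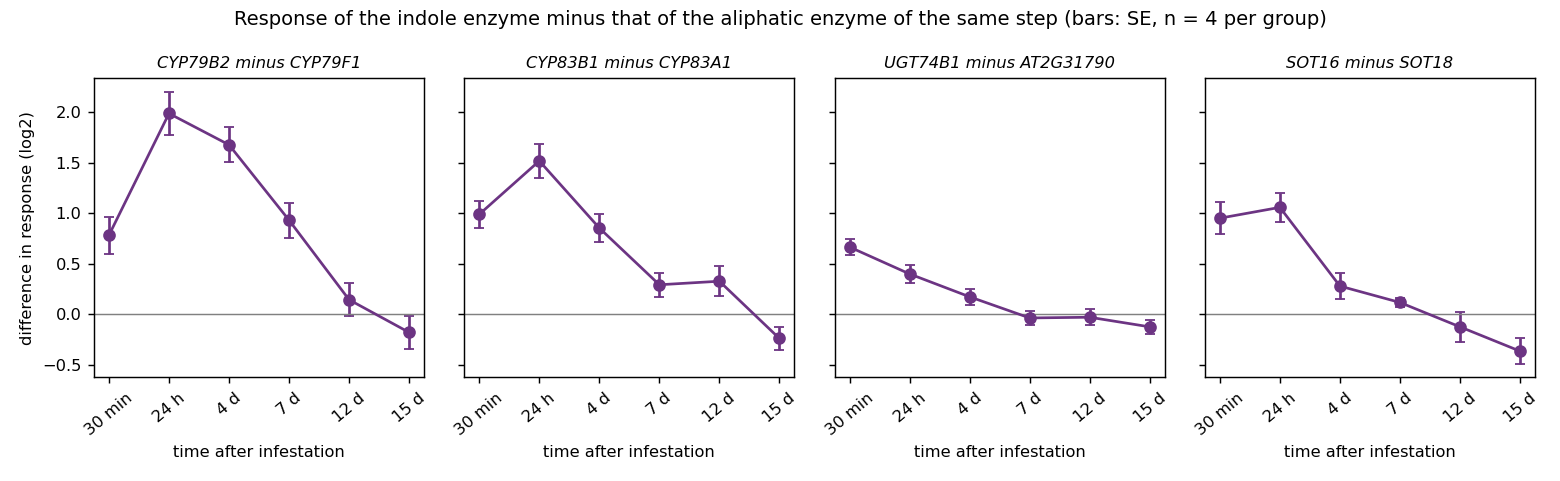
Difference in response (log2, infested minus control) between the indole enzyme and the aliphatic enzyme of the same step at the 6 times; points are differences of means and bars their SE, with 4 libraries in each group. The partner of SOT16 is SOT18. All 4 differences are positive at 30 min and 24 h, up to 1.99 for CYP79B2 minus CYP79F1, and all 4 are below 0 at 15 d, where the groups overlapped.

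Libraries of the same group also differed from each other, and the enzymes varied with MYB34 in these differences. Each library's log2 CPM was taken as its deviation from the mean of its group of 4, which removes treatment and time. Over the 48 libraries, MYB34 correlated with GGP1 at r = 0.87 (Spearman's rho 0.827), with SOT16 at 0.833 (0.764), with CYP79B3 at 0.767 (0.699) and with CYP79B2 at 0.764 (0.637). The values for UGT74B1, CYP83B1 and SUR1 were 0.744 (0.654), 0.732 (0.642) and 0.722 (0.688). All 7 had permutation p-values between 1e-05, the smallest 100000 resamples can give, and 2e-05, and adjusted over the 21 relations between 3 factors and 7 enzymes they were 4.2e-05 to 6e-05. Adjusted p of rho was 0.00021 to 0.00063. Without the 2 libraries farthest from the median of MYB34, r was 0.674 to 0.847.

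The relation was not tested within each treatment, and r was positive in both. Within the 24 infested libraries r of MYB34 with the enzymes was 0.384 (UGT74B1) to 0.786 (GGP1), and within the 24 control libraries it was 0.764 (CYP83B1) to 0.891 (GGP1). The difference between treatments was not tested. As background, 0.0899% of 22251 genes had an r with GGP1 at or above that of MYB34, and the share was 0.144% to 0.575% for the other enzymes, while the median r over all genes lay between -0.023 and -0.003. MYB34 also correlated with MYC2, a factor of jasmonate signalling, at r = 0.81 (adjusted permutation p 7e-05 over 7 relations, rho 0.794). Without the 2 libraries farthest from the median of MYC2, r was 0.777. MYB34 correlated with the library total at r = 0.508 (adjusted permutation p 0.014, rho 0.506). Without the 2 libraries farthest from the median library total, r was 0.499. With the library total removed, r of MYB34 with the enzymes was 0.678 to 0.861. None of the clock genes CCA1, LHY, PRR5, TOC1 and GI passed by r, with values from -0.361 to 0.22, and TOC1 passed by rho (-0.405, adjusted permutation p 0.027).

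For MYB51 no relation of this kind passed. Its r with the 7 enzymes was -0.167 to 0.076 (permutation p 0.3 to 0.92, adjusted 0.79 to 0.96). MYB122, whose deviations rest on counts at or near 0, had r from -0.173 to -0.01 (adjusted permutation p 0.81 to 0.96).

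**Figure D5:**
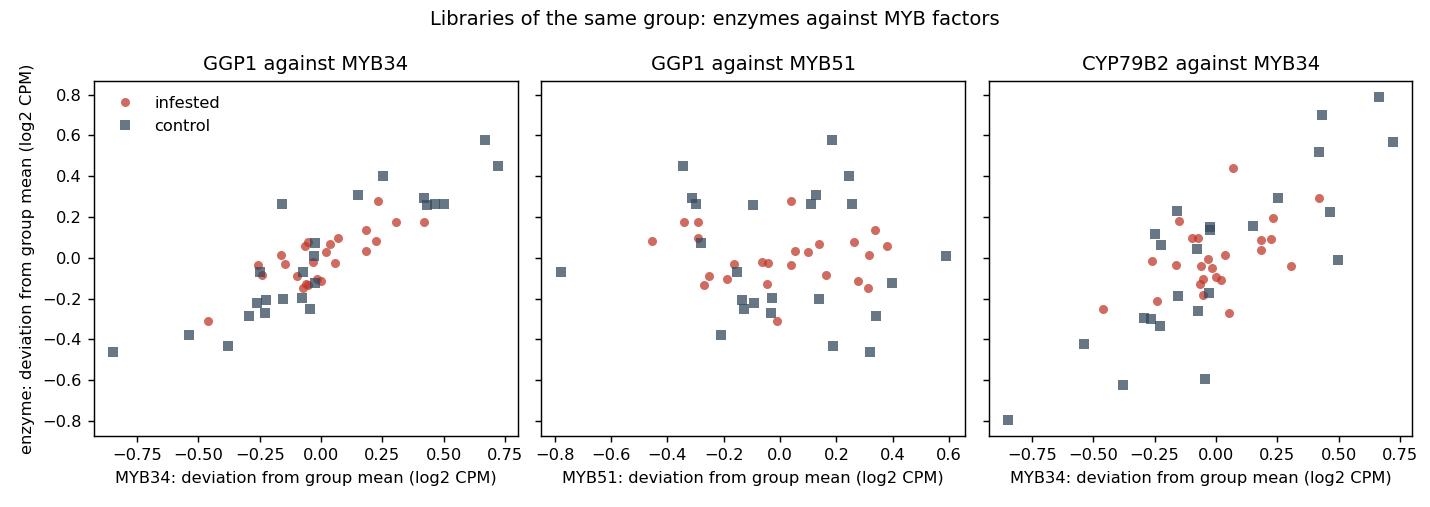
Deviation of each of 48 libraries from the mean of its group, in log2 CPM: GGP1 against MYB34 (left), GGP1 against MYB51 (middle) and CYP79B2 against MYB34 (right), with infested libraries as circles and control libraries as squares. Points rise together against MYB34 (r = 0.87 and 0.764) while r against MYB51 was -0.084.

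Across the 12 group means, likeness of log2 CPM between members is given as Pearson r, with 12 groups that share treatments and times. The members were not sorted into sets. CYP79B2 and CYP79B3 were at 0.99, and CYP83B1 and SOT16 were at 0.96 to 0.98 with them. SUR1 and UGT74B1 were at 0.91 with each other. SUR1 was at 0.51 with CYP79B2 and 0.75 with GGP1, and UGT74B1 at 0.75 with CYP79B2 and 0.87 with CYP83B1. GGP1 was at 0.75 (SUR1) to 0.88 (SOT16) with the other enzymes. MYB34 was at 0.93 with CYP79B2 and 0.39 with SUR1, and MYB51 was between -0.21 and 0.07 with the enzymes.

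Outside the members, the nearest profile to CYP79B2 was AT4G11911 at 0.993, followed by TRP1 and the annexin gene ANNAT4, both at 0.989. TRP1, an enzyme of tryptophan synthesis, was also among the 3 nearest to CYP79B3, at 0.986, with AT2G04400 at 0.991 and PRS3 at 0.986. AT2G04400 was nearest to CYP83B1 at 0.988 and to SOT16 at 0.978. BGLU5 was next for CYP83B1 at 0.977 and for SOT16 after the jasmonate enzyme AOS (0.972) at 0.968, and APS3 was at 0.968 with CYP83B1. SUR1 was nearest to AT4G21903 (0.968), FMO GS-OX1 (0.964), which oxidises aliphatic glucosinolates, and SOT17 (0.96). UGT74B1 was nearest to AT3G46650 (0.974), TAAC (0.971) and CB5-C (0.966), and GGP1 to WRKY62 (0.967), GolS1 (0.966) and KAT5 (0.964). MYB34 was nearest to AT3G20390 and AT5G23820, both at 0.98, and AT4G24350 (0.977). MYB51 was nearest to the ethylene response factor gene ERF5 and to AT1G35210, both at 0.95, and to AT2G26190 (0.946).

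For the lists from here on, the shares of all genes higher were 13.3%, 13%, 8.68%, 6.16%, 7.78% and 8.67% at the 6 times in order. The shares lower were 9.71%, 10.2%, 7.68%, 7.59%, 8.3% and 9.68%. Small counts in a short list are near these shares and are not read as a response of the list. Genes that supply tryptophan rose alongside the entry enzymes. Of 11 tested, 6 were higher and 2 lower at 30 min, 8 higher and none lower at 24 h and at 4 d, 6 higher at 7 d, none at 12 d and 2 at 15 d, with none lower from 24 h on. DESeq2 gave the same zeros, and at an unadjusted p under 0.05 edgeR gave 1 lower at 24 h and 0 higher at 12 d. Their median log2 fold change was 1.72 at 24 h. The largest rises at 24 h were those of PAI2 (2.19, adjusted p 1e-09), the anthranilate synthase gene ASA1 (2.18, adjusted p 1.3e-10) and the tryptophan synthase gene TSA1 (2.03, adjusted p 2.2e-16). At 30 min ASB1 rose by 1.00 and at 4 d PAI2 by 1.78, whereas ASA2, the other anthranilate synthase alpha gene, had log2 fold changes between -0.11 and 0.15 and passed at no time. Counts of PAI1, PAI2 and PAI3 are uncertain because the copies are nearly identical.

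Genes that supply sulfate and glutathione moved in part. Of 13 tested, 9 were higher and 2 lower at 24 h, 5 higher and 1 lower at 4 d, and at the other times 1 to 4 were higher and 1 or 2 lower. At 24 h the adenylylsulfate kinase gene AKN2, the annotated gene just before CYP79B2 on chromosome 4, rose by 1.39 (adjusted p 1.3e-06). The glutathione synthetase gene GSH2 rose by 1.36 (adjusted p 1.6e-16) and the kinase gene APK by 1.34 (adjusted p 1.9e-08). APR2, a reductase gene, fell by 0.68 at 30 min (adjusted p 2.5e-07). Of 3 tested genes of further core steps, the glutathione transferase genes GSTF10 and GSTF9 rose at 24 h by 1.47 and 1.27 (adjusted p 1.3e-14 and 3.8e-10).

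Of the 9 aliphatic counterparts, none passed at 30 min, 7 were higher and 1 lower at 24 h, 4 higher and 1 lower at 4 d, none passed at 7 d and 12 d, and 7 were higher at 15 d. DESeq2 also gave 0 at 30 min, 7 d and 12 d, and at an unadjusted p under 0.05 edgeR gave 1 lower at 30 min, 2 higher at 7 d and 0 at 12 d. At 24 h SOT17 rose by 1.12, CYP79F2 by 0.81 and MYB76 by 0.73 (adjusted p 5.2e-07, 5.3e-05 and 0.0085), while MYB28, the main activator of the aliphatic branch, fell by 0.54 (adjusted p 1.5e-05). At 15 d SOT17 rose by 0.96, CYP79F1 by 0.78 and SOT18 by 0.73 (adjusted p 3.7e-05, 0.0015 and 0.00011). SOT17 had 115 ± 5.3 CPM in infested and 59.3 ± 19.5 CPM in control plants at that time.

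Genes that decorate the indole core moved apart from each other. Of 9 tested, 5 were higher at 24 h, and at 4 d 3 were higher and 2 lower. IGMT5, a methyltransferase gene of indole glucosinolates, had 154 to 353 CPM in infested and 6.94 to 41.3 CPM in control plants at 24 h, a log2 fold change of 3.65 (adjusted p 1.6e-07). The hydroxylase gene CYP81F4 had 351 to 488 CPM in infested and 26 to 118 CPM in control plants, a log2 fold change of 2.83 (adjusted p 4.6e-07). CYP81F2, another hydroxylase gene of the indole core, had the signs of MYB51 instead at 30 min and 4 d. It was higher at 30 min by 2.00 (6.04 ± 1.22 CPM in infested and 1.52 ± 0.48 CPM in control plants, adjusted p 0.00017). At 4 d it was lower, with a log2 fold change of -1.93 (3.12 ± 1.13 CPM in infested and 11.9 ± 3.24 CPM in control plants, adjusted p 1e-04). At 12 d and 15 d, where MYB51 passed as lower, 0 of the 9 genes did so by edgeR. DESeq2 gave 0 and 1 lower at these times. IGMT2 rose by 2.08 at 30 min (adjusted p 7.3e-07), though counts of IGMT1 to IGMT4 are uncertain because these copies are close to each other in sequence.

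The aldoxime made by CYP79B2 and CYP79B3 also feeds camalexin and indole carboxylates. Of 5 genes of those branches, 4 were higher at 24 h and at 4 d, but at low levels. PAD3, the last enzyme of camalexin synthesis, had 1.42 to 10.8 CPM in infested and 0 to 0.16 CPM in control plants at 24 h, and CYP71A12 had 2.88 to 6.87 CPM in infested and 0.631 to 0.902 CPM in control plants (log2 fold change 2.52, adjusted p 3e-05). CYP71A13 had 222 counts in the 4 infested and 1 count in the 4 control libraries at 24 h, which is too few for a fold change. At 12 d CYP71A13 and PAD3 were lower in infested plants (log2 fold changes -3.08 and -2.65, adjusted p 0.014 and 0.0067), where single control libraries reached 12 CPM for CYP71A13 and 24.8 CPM for PAD3.

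Of 7 further regulators, 3 were higher and 2 lower at 30 min, and 3 were higher at 24 h. MYC2 was higher at 30 min and at 24 h, where it had 342 to 516 CPM in infested and 50.6 to 158 CPM in control plants (log2 fold change 2.31, adjusted p 2.6e-06). MYC3 rose by 0.61 at 24 h. WRKY33, which acts in the response to pathogens, had 96.4 ± 14.0 CPM in infested and 11.9 ± 0.463 CPM in control plants at 30 min (log2 fold change 3.02, adjusted p 1.3e-10). At 4 d WRKY33 had 21.6 to 29 CPM in infested and 106 to 207 CPM in control plants, and its log2 fold change was -2.63 (adjusted p 3.5e-09). It stayed lower to 15 d (-1.86). OBP2 and IQD1 passed at no time.

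Of 7 genes of transport and breakdown, 4 were higher at 30 min, 3 at 24 h, 4 at 4 d, 2 at 7 d and 12 d, and 1 at 15 d, while 2 were lower at 4 d and 7 d and 1 at 12 d and 15 d. None was lower at 30 min and 24 h by edgeR or DESeq2, with 1 at each of these times at an unadjusted p under 0.05. The glucosinolate importer genes GTR1 and GTR2 rose by 1.89 and 0.83 at 30 min and by 1.42 and 0.98 at 24 h. The myrosinase genes TGG1 and TGG2 were higher from 4 d on, by 0.95 and 1.19 at 7 d (adjusted p 2.3e-07 and 4.9e-09), except that TGG2 at 15 d did not pass (0.31, adjusted p 0.078). PEN2, an atypical myrosinase for indole glucosinolates, rose by 0.76 at 30 min (adjusted p 4.8e-06) and was lower at 4 d, with a log2 fold change of -0.40 (adjusted p 0.018).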

How the data were processed

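RNA was sequenced from 48 libraries, 4 for each of 12 groups, made with the NEBNext Ultra kit from aerial tissue and read as pairs. The values are whole-number read counts per gene as deposited by the authors. The submitters' processing notes name HISAT2, DESeq2, fastp and featureCounts and the build TAIR10. The sources used here state neither their versions and settings nor whether strand was used. Symbols, exon lengths and promoters came from RefSeq's TAIR10.1 by locus name, which matched 32548 of 33211 features. TAIR10.1 keeps the nuclear chromosomes of TAIR10, and no coordinate was carried between them.

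edgeR 4.0.16 in R 4.3.3 was used for filterByExpr by group (22252 genes kept), scaling by the trimmed mean of M values, and a robust quasi-likelihood fit of 12 group means on all 48 libraries. The two-sided F-test compared infested with control plants at each time, the change of that effect between times, and the times within a treatment. Gene pairs were compared by exact permutation of 4 against 4 libraries, where the smallest p is 0.029, and within-group correlations by 100000 permutations within groups. In simulated counts, edgeR's test recovered known changes set at 24 h, and the permutation tests were not tried on simulated data. None of 72 replicate pairs was identical, and their chi-square per gene of 2.57 to 47 was above counting noise. The labels do not say whether the pools of a group were grown apart, so p-values measure the spread between these pools.

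Alternatives were library totals or relative log expression as scaling, no filter, DESeq2 1.42.0, the libraries of a time alone, a replicate block, dispersion that was not robust, and leaving out each library. Named genes were all members, the partners of the pairs, at most the 3 largest changes past the threshold of each context list and time, and the 3 nearest profiles of each member. Other genes were named, after their values were seen, to complete a pair or a list. Members, lists and tests were chosen with earlier results of these data known.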

Additional observations from a re-analysis of the deposited data

Results flagged for a closer look

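A single library lay far from the other 3 of its group in 2 of the 108 groups of 4 looked at, or 1.85%, where chance flags about 5%. SUR1 had 264 CPM in control replicate 1 at 12 d, against 187 to 195 CPM in the other control libraries. MYB51 had 24.39 CPM in control replicate 4 at 7 d, against 13.1 to 14.7 CPM in the others.

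The infestation effect of 7 members differed between successive times by edgeR's quasi-likelihood test. From 30 min to 24 h it changed by 2.07 for CYP79B2, 1.71 for CYP79B3, 1.26 for MYB34, 1.05 for GGP1, 0.85 for SOT16, 0.83 for CYP83B1 and -1.11 for MYB51 on the log2 scale. From 24 h to 4 d it changed by -0.91 for SOT16 and -1.93 for MYB51.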

How the results depend on the processing

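No effect past the threshold changed its sign under any alternative. At 12 d, effects that did not pass took both signs over 16 settings: log2 fold changes were -0.08 to 0.20 for CYP79B3, -0.07 to 0.09 for UGT74B1, -0.09 to 0.14 for GGP1 and -0.14 to 0.02 for SOT16. Of the effects of a member at a time under an alternative, 783 kept their side of the threshold, 19 lost the call and 8 gained it. The calls that changed are given beside their values above, and none of them was a rise at 24 h or a value of MYB51. With each time fitted alone, 5 members were higher at 7 d in place of 2 and 1 at 12 d in place of 0. Fewer were higher at 30 min (5, not 6), at 4 d (6, not 8) and at 15 d (2, not 3). The shares of all genes called are not given for this fit, for fits without a library or for the replicate block. Counts under these fits show which calls of members held and are not compared with all genes. A prior count of 5 in the log2 CPM put 39 tests of gene pairs past the threshold, where a prior count of 2 or 0.5 put 0 past it. Their adjusted p lies at 0.051 when 37 tests reach the smallest p of the design, so the count turns on how many reach it, and without the pairs of MYB122, left out after seeing the data, 31 passed. Leaving out each library of a time in turn gave 4 to 7 members higher at 30 min, 8 at 24 h, 6 to 8 at 4 d, 2 or 3 at 7 d, 0 at 12 d and 2 or 3 at 15 d. The labels say nothing of what a replicate number shares, and same-numbered infested and control libraries correlated in their deviations from the group means at -0.503 to 0.252 in 24 pairs, so not every pair was over 0.1 and the numbers were not taken to pair the samples. As a hint from the data, 24 of 48 libraries were closest to their own number, where unrelated numbers would give about 12. The replicate block changed no count of members: 6 were higher at 30 min, 8 at 24 h, 8 at 4 d, 2 at 7 d, 0 at 12 d and 3 at 15 d. With the block, 1 member was lower at each time from 4 d. With the replicate number removed, r of MYB34 with the enzymes was 0.715 to 0.869. The removal of library totals from these correlations was added after seeing the data. The cause of the changed calls was not tested. MYB51, at 2.52 to 24.39 CPM, and MYB122 were the members that depth limited most.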
